A study of Rattus norvegicus with 3 samples.

Results

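The cytosolic ribosomal proteins are the protein components of the ribosome that translates nuclear-encoded mRNA. They were taken here as the gene symbols of the array annotation that start with Rpl or Rps and a digit, together with Rplp0, Rplp1, Rplp2 and Rpsa, leaving out the Rps6k kinases and symbols marked -ps. This gave 78 genes on 122 probes, of 15924 named genes in all. The set holds 27 proteins of the small 40S subunit and 51 of the large 60S subunit, and 7 of the 78 are paralogs or copies of a core protein. Of these genes 45 had 1 probe and 33 had 2 or more. No filter on low values was applied, so all 78 are accounted for.

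Ribosomal proteins are made in near-equal amounts, are assembled with ribosomal RNA in the nucleolus and are among the most abundant proteins of a growing cell. Most of their mRNAs start with a tract of pyrimidines, the 5′ terminal oligopyrimidine or TOP tract, through which the kinase mTORC1 and the binding protein LARP1 control translation as a group. Cells can therefore change how much of these mRNAs is translated at an unchanged mRNA level, and an expression array measures only the mRNA.

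Total RNA of NR8383 cells, an established rat alveolar macrophage line, was measured on 1-colour Agilent arrays. The nanotube groups received CNT-1 or CNT-2, single-wall carbon nanotubes labelled impurity-free, at 0.1 mg/mL for 24 h in a solution with 1 mg/mL bovine serum albumin. The sources used here do not give how CNT-1 and CNT-2 differ. The control is described in the labels both as untreated and as solvent with albumin, so whether it received albumin is not settled. Each of the 3 groups had 1 column of values, although the design text names an n of 4 and not its unit, so no test between groups was possible. The values are differences on a scale presumed to be log2, centred for each probe on a baseline that is not given. They carry no expression level, so macrophage markers could not be checked and no gene's level can be set against another's. An array of pooled cells also cannot tell apart fewer cells holding a transcript and less RNA per cell.

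The sequence around the annotated transcription start was read for a pyrimidine run where a TOP tract would lie, which some of the members shown here have. RefSeq's GRCr8 promoter table held 68 of the 78 genes, and Rpl15 was among the 10 not matched. Each line gives 20 bases before and 20 bases from the start, 5′ to 3′. Capitals mark an unbroken run of C and T letters on the transcribed strand that holds the first transcribed base and is at least 5 letters long. The run may begin before the start, so it is not by itself a TOP tract. The first 5 are the matched members lowest in CNT-2, the next 3 the highest and the last 3 those nearest 0.
Rps26, chr7:1643385-1643424, minus strand: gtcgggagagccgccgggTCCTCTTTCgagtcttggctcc
Rpl34, chr2:221962264-221962303, minus strand: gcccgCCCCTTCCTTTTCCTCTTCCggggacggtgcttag
Rpl28, chr1:78083513-78083552, minus strand: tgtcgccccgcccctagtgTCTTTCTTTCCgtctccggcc
Rps7, chr6:50999426-50999465, minus strand: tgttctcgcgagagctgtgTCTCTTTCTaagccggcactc
Rpl22, chr5:168117941-168117980, plus strand: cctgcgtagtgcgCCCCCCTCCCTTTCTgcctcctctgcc
Rpl22l1, chr2:113683176-113683215, plus strand: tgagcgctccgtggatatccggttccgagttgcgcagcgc
Rpl10, chrX:157205830-157205869, plus strand: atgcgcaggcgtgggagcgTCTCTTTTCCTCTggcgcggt
Rpl39l, chr10:5966602-5966641, minus strand: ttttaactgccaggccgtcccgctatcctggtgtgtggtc
Rps24, chr16:96497-96536, plus strand: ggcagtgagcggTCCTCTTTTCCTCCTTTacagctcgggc
Rpl7a, chr3:30637116-30637155, plus strand: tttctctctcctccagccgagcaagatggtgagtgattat
Rps3, chr1:163195757-163195796, minus strand: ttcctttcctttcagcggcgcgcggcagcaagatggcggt

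All 5 of the lowest matched members carried such a run at the annotated start, as did Rpl10 and Rps24, whereas Rpl22l1, Rpl39l, Rpl7a and Rps3 did not. The run was present in 38 of 68 matched members (55.9%) and at 11.96% of the 33469 starts in the table. A start annotated a few bases off would miss a tract that lies beside it, as the pyrimidine-rich letters just upstream in Rps3 and Rpl7a show. The members with the run had a median difference of -0.03 for CNT-2 minus control and ranged from -2.46 to 0.28. The 30 members without it had a median of -0.0002 and ranged from -0.32 to 0.37. The ranges overlapped between -0.32 and 0.28, and the lowest 5 values lay in the group with the run. Of these, the values of Rpl28 and Rps7 rested on 1 of their 2 probes. Every paralog lay in the group without the run, among them its highest value, Rpl22l1, so the groups also differ in paralog status.

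Other short sequences were counted on both strands of the 300-base windows. CCGGAA, the core of ETS-family sites, stood in 51.5% of matched member windows and 15.0% of all windows. TCTCGCGA stood in 17.6% and 0.855%, AAGATGGC in 8.82% and 3.17%, and TATAAA in 8.82% and 14.2%. In CNT-2 the 35 members with CCGGAA had a median of -0.006 and the 33 without it -0.03. The 12 members with TCTCGCGA had a median of 0.05 and the 56 without it -0.05. The printed Rps7 window holds tctcgcga just upstream of its run, and Rps7 was nevertheless among the lowest members.

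In cells exposed to CNT-1 these genes lay close to the control. None of the 78 members was 1 log2 unit or more from the control in either direction, where 3.30% of all genes were (1.16% higher and 2.15% lower). None was 0.5 log2 units away either, where 4.96% of all genes were higher and 8.18% lower. The median difference was 0.02, 52 members lay above 0 and 25 below, and 76 of 78 (97.4%) lay within 0.1 of 0, against 32.1% of all genes. The side of 0 depended on the scaling, with 11 members above and 67 below under 75th percentile centring and 76 above and 2 below, at a median of 0.19, with quantile normalization. The interquartile range of the members was 0.05 log2 units, against 0.36 for all genes. All 122 member probes lay within 0.1 of 0 in the control column, which held for 72.6% of gene probes. Among all genes restricted to such probes 39.8% lay within 0.1 of 0 and the interquartile range was 0.27. The negative-control probe was at -0.27 for CNT-1 minus control and -0.10 for CNT-2 minus control, and how many genes of the array lay at background cannot be read from the values.

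The order of members within CNT-1 rested on small differences. The highest was Rpl39l, a paralog found mainly in testis, with values of -0.01 in control and 0.14 in CNT-1 and a difference of 0.15. Next came Rpl9 at 0.10, Rpl4, which lines the tunnel through which new protein leaves, at 0.08, Rps20 of the 40S head at 0.08, the tunnel protein Rpl39 at 0.07 and Rpl36a at 0.07. The lowest were Rpl28 at -0.10, Rpl15 at -0.08, Rpl37 at -0.07, Rpl8 near the peptidyl transferase centre at -0.07, Rplp0 at -0.07 and Rplp1 at -0.05. The median SD over probes of the same member was 0.03 in this comparison. Apart from Rpl39l and Rpl9, neighbours among the members named here differed by less than that. That spread is technical and does not measure how cultures vary.

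**Figure D1:**
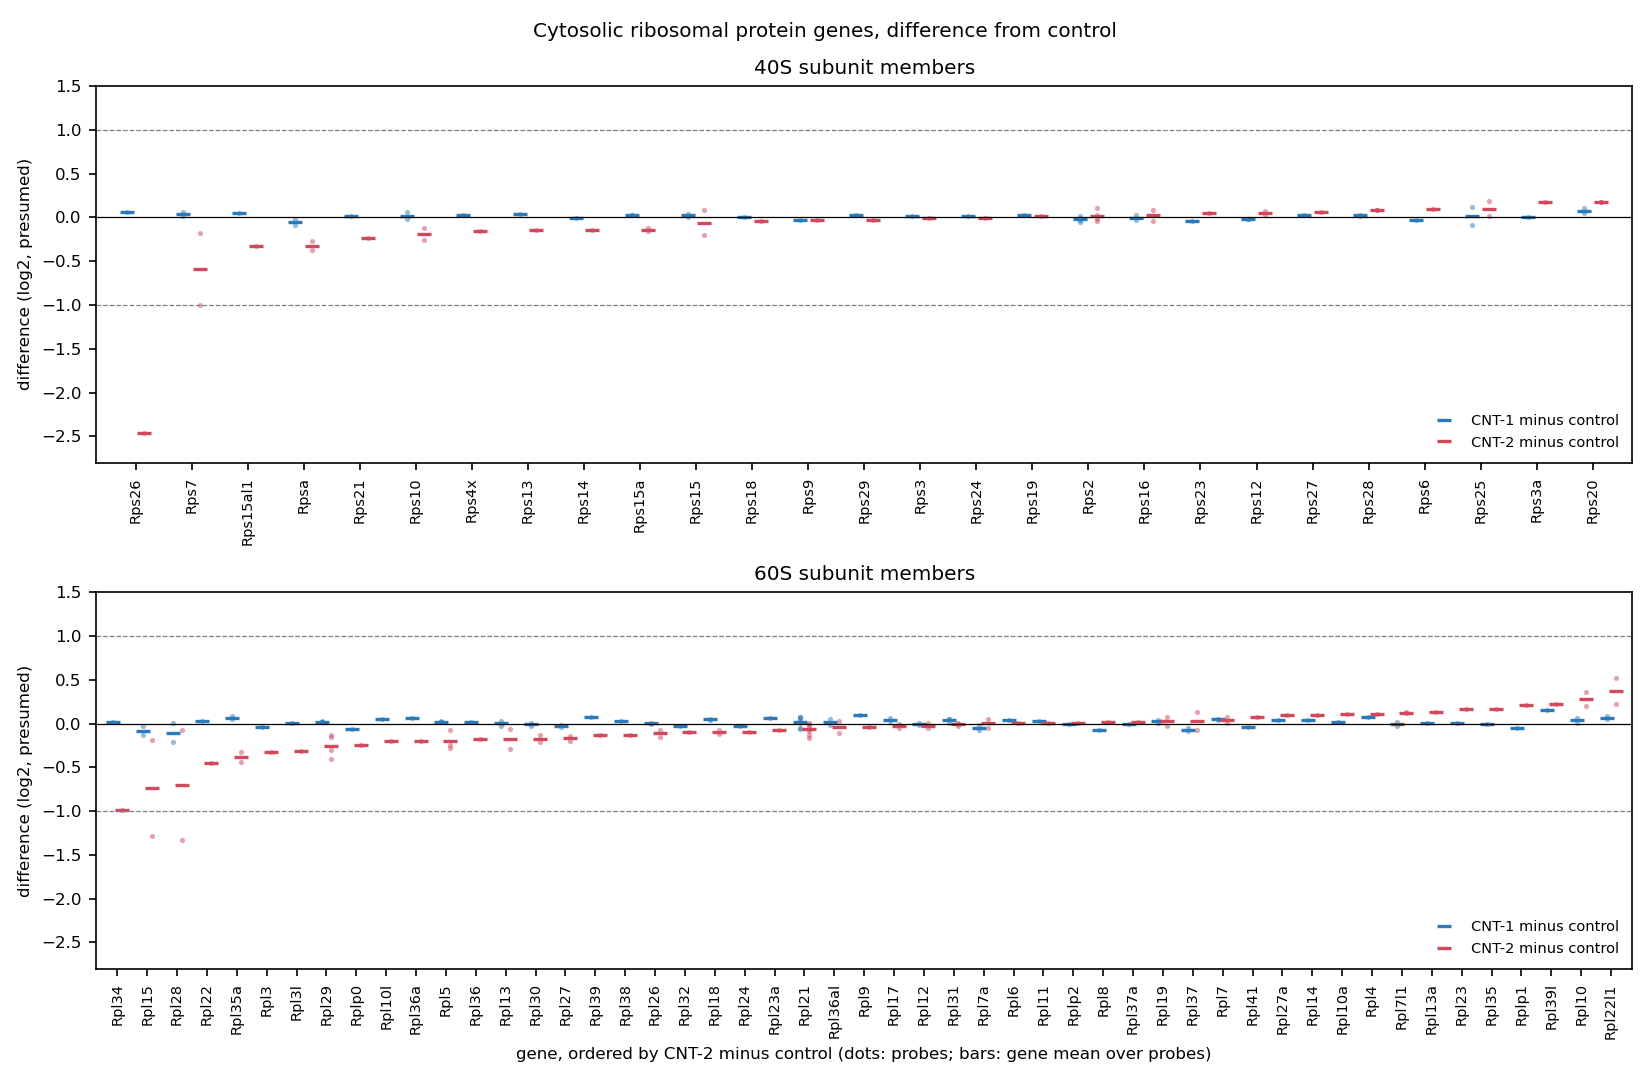
Differences from control for the 78 ribosomal protein genes, by subunit and ordered by CNT-2 (y axis: log2, presumed). Dots are probes, horizontal bars gene means over probes, and dashed lines mark 1 log2 unit. Gene means in CNT-1 lie between -0.10 and 0.15, while those in CNT-2 run from Rps26 at -2.46 to Rpl22l1 at 0.37. Single probes reach -0.21 in CNT-1 and 0.52 in CNT-2.

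In CNT-2, where far more of the array differed from the control, the ribosomal protein genes spread more widely than in CNT-1 and a few lay well below the control. The median over members was -0.03, with 33 above 0 and 45 below, and the quartiles lay at -0.17 and 0.05. None was 1 log2 unit or more higher, where 10.1% of all genes were, and 1 of 78 was that much lower, Rps26, where 6.56% of all genes were. At a difference of 0.5 log2 units 5 members were lower and none higher, whereas 16.1% of all genes were lower and 23.4% higher. With quantile normalization only Rps26 of these 5 stayed that low, at -1.28. The share within 0.1 of 0 was 46.2% for members and 16.3% for all genes. In the 40S subunit the median was -0.03 over 27 members, and in the 60S subunit -0.04 over 51.

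Values of control probes also differed from the control in the CNT-2 column, in a direction that varied with the kind of probe. Their part in the result was not tested. In CNT-2 minus control the 10 probes for spiked-in RNA averaged 0.23 ± 0.10, with the SD taken over probes. Control probes with DCP names, of a kind the files leave unexplained, were at 0.22 ± 0.08 for numbers 0 to 5 and at -0.18 ± 0.26 for numbers 6 and above (SD over 11 and 7 probes). In CNT-1 minus control the spike-in probes averaged -0.05 ± 0.07, and the DCP groups, in the same order, were at 0.01 ± 0.04 and -0.05 ± 0.11. Centring the columns on the spike-in probes placed the member median in CNT-2 at -0.28 with 76 of 78 members below 0, and the median of all genes at -0.20. The distance between the member median and the median of all genes was -0.07 as deposited, which centring cannot alter, and 0.04 with quantile normalization.

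Rps26 stood alone among the members. It forms part of the channel through which mRNA leaves the 40S subunit and is a gene of Diamond-Blackfan anaemia, an inherited red cell disorder. Its single probe was at -0.01 in control, 0.05 in CNT-1 and -2.47 in CNT-2. CNT-1 thus differed from control by 0.06 and CNT-2 by -2.46, and 69 of 15924 genes lay that low or lower in CNT-2. The next lowest member, Rpl34, was at -0.985. Under the 4 other scalings the CNT-2 difference ranged from -2.90 to -1.28. No second probe was there to check it. RefSeq lists 15 further symbols built on the name Rps26, 11 of them marked -ps, and the files do not show which copies the probe matches. Such copies are common in this family, with a median of 13 by name, and Rps2, with 36, lay at 0.02.

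Rpl34, a 60S protein, also rested on 1 probe, with values of -0.02 in control, -0.001 in CNT-1 and -1.001 in CNT-2. It differed from control by 0.015 in CNT-1 and -0.985 in CNT-2. It lay just short of the threshold against control and at it in CNT-2 minus CNT-1. The CNT-2 difference was past the threshold with median centring at -1.08, 75th percentile centring at -1.42 and spike-in centring at -1.23, and was -0.34 with quantile normalization.

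The low values of 3 further members rested on 1 of their 2 probes. The probes of Rpl15, a protein deep in the 60S core, differed from control by -0.19 and -1.29 in CNT-2, with a gene mean of -0.74 ± 0.78 (probe SD). The probes of Rpl28 were at -0.07 and -1.33, with a gene mean of -0.70 ± 0.89. The probes of Rps7, a 40S protein that also binds the p53 regulator Mdm2, were at -0.18 and -1.004, with a gene mean of -0.59 ± 0.58. In each the low probe lay below every member's mean except that of Rps26, and the other probe lay among the rest of the members. With quantile normalization the gene means were -0.24 for Rpl15, -0.29 for Rpl28 and -0.19 for Rps7. The low Rps7 probe was annotated by X56846, which is not a RefSeq accession, whereas both probes of Rpl15 and of Rpl28 carry the RefSeq accession of their gene. In CNT-1 the same low probes were at -0.13 for Rpl15, -0.21 for Rpl28 and 0.06 for Rps7. The Rpl28 and Rpl15 probes were thus the lowest of the 122 in CNT-1 as well, and the Rps7 probe was not low there.

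**Figure D2:**
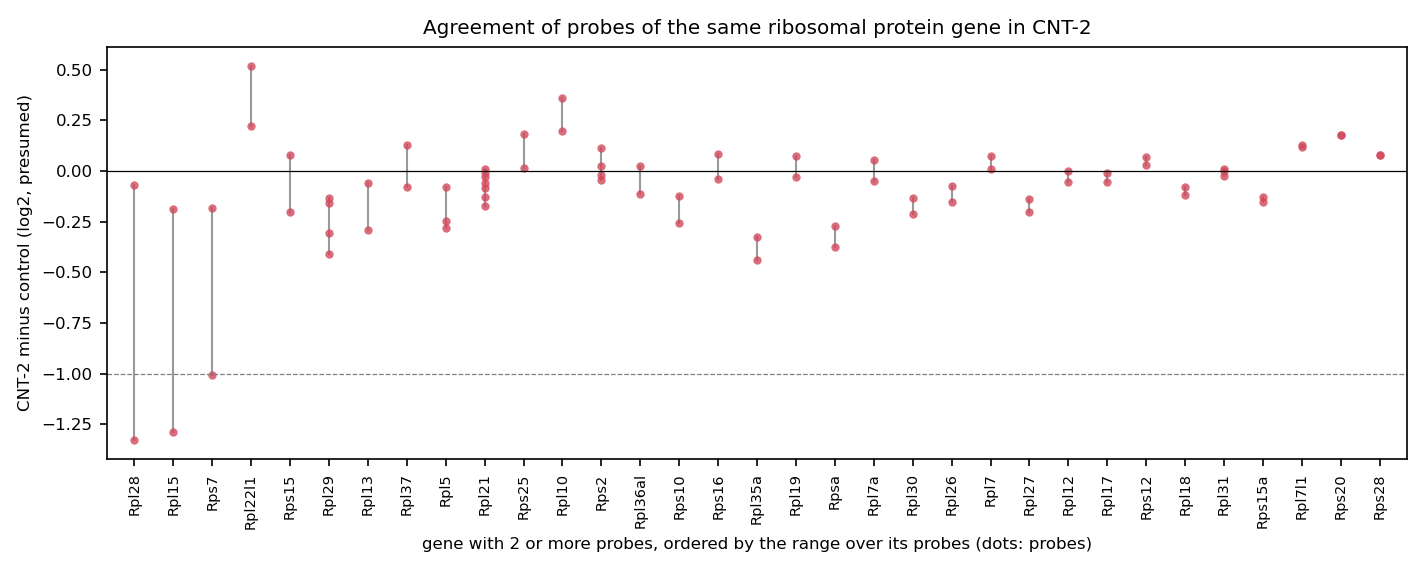
CNT-2 minus control (y axis: log2, presumed) for each probe of the 33 ribosomal protein genes with 2 or more probes, ordered by the range over probes. Rpl28, Rpl15 and Rps7 each have 1 probe at or below -1 and 1 above -0.20, and the other 30 genes span less than 0.5.

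In most other members with several probes these lay within 0.2 of each other. The median probe SD over the 33 genes with several probes was 0.07 in CNT-2, against 0.19 over the 3910 genes of the array with several probes. Of the 33, 9 spanned more than 0.2 and 3 more than 0.5. Some had probes on either side of 0, such as Rpl37 at -0.08 and 0.13 and Rps15 at -0.20 and 0.08. Rpl21, with 7 probes, was at -0.07 ± 0.06 and Rps2, with 4, at 0.02 ± 0.07. With the 33 genes alone no member was past 1 log2 unit.

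Below these, Rpl22, an RNA-binding 60S protein, was at -0.02 in control, 0.01 in CNT-1 and -0.46 in CNT-2, a CNT-2 difference of -0.45 on 1 probe. Rpl35a, another gene of Diamond-Blackfan anaemia, was at -0.06, 0.01 and -0.44, a difference of -0.38 ± 0.08 on 2 probes. Rpl35a was 0.07 above control in CNT-1. Above 0 the differences were smaller. Rpl22l1 was the highest member at 0.37 ± 0.21 (probe SD, 2 probes), followed by Rpl10, which joins the large subunit late in its assembly, at 0.28 ± 0.11 (2 probes). Rpl39l was at 0.22, Rplp1 at 0.21, Rps20 at 0.18 ± 0.002 (probe SD, 2 probes) and Rps3a at 0.17. With 75th percentile centring each of these high members lay below 0, among them Rpl22l1 at -0.07 and Rpl10 at -0.16, so their direction depends on the scaling.

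The paralogs can be set beside their core partners. In CNT-2 Rpl22 and Rpl22l1 lay on opposite sides of 0, at -0.45 and 0.37, and were 0.03 and 0.07 in CNT-1. Rpl22 protein is known to restrain Rpl22l1 expression in mouse cells. Centring cannot alter the gap between them, but placed both below 0 with the 75th percentile, at -0.88 and -0.07. With quantile normalization they were at -0.05 and 0.59. Rpl10 and Rpl10l, a testis paralog, were at 0.28 and -0.20. Rpl39 and Rpl39l were at -0.13 and 0.22. The Rpl3 pair did not part, with Rpl3 at -0.32 and its muscle paralog Rpl3l at -0.32 (-0.321 and -0.315). Rpl7 and Rpl7l1 were at 0.04 and 0.12, Rpl36a and Rpl36al at -0.20 and -0.04, and Rps15a and Rps15al1 at -0.14 and -0.32. As the values hold no level, whether the testis and muscle paralogs were expressed in these cells cannot be read from them, and probes of near-identical copies may share signal.

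**Figure D3:**
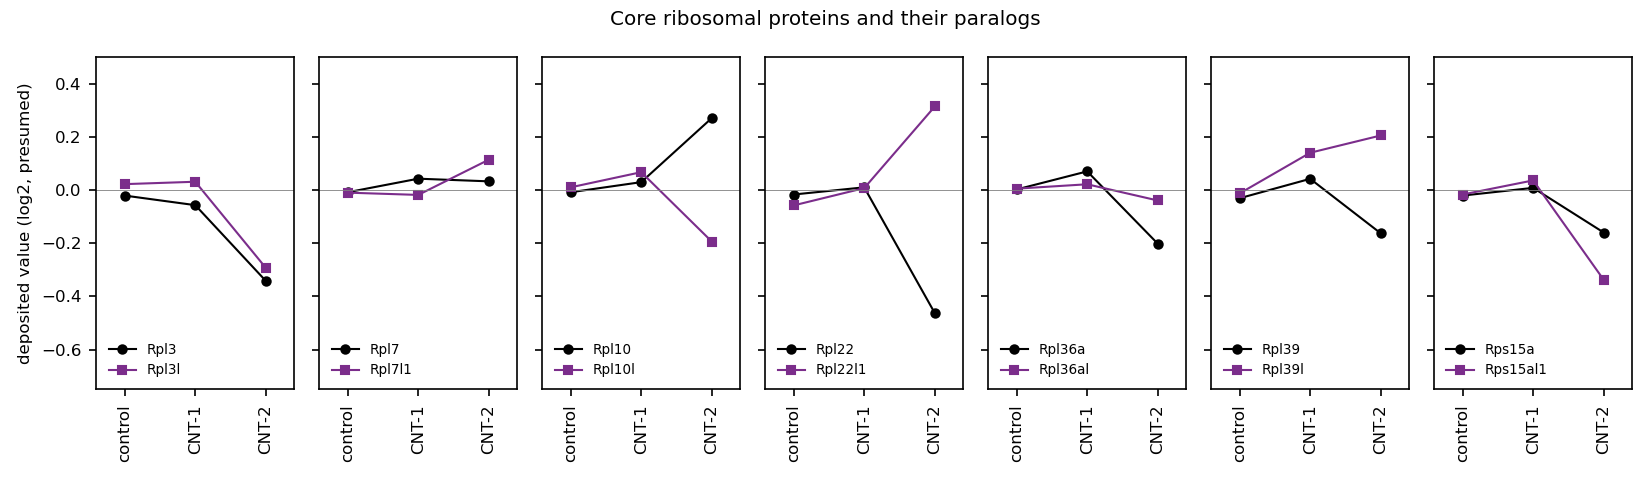
Deposited values (y axis: log2, presumed) of 7 core ribosomal proteins (circles) and their paralogs (squares) in the control, CNT-1 and CNT-2 columns, 1 value per group, averaged over probes. Rpl22 and Rpl22l1 end furthest apart in CNT-2, at -0.46 and 0.31, while Rpl3 and Rpl3l stay together.

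In CNT-2 the members with known roles beyond the core named here ran from Rpsa at -0.32 to Rplp1 at 0.21. Of them Rplp2 and Rpl11 lay between the member quartiles of -0.17 and 0.05, and the others lay outside. The P-stalk recruits translation factors to the ribosome, and the values of its 3 proteins lay apart in CNT-2 as deposited. Rplp0, the base of the stalk, was at -0.24, Rplp1 at 0.21 and Rplp2 at 0.01, each on 1 probe. In CNT-1 they were at -0.07, -0.05 and -0.001. Rplp1 lay below 0 with 75th percentile centring, at -0.23, and with spike-in centring, at -0.04. With quantile normalization Rplp0, Rplp1 and Rplp2 were at 0.054, 0.075 and -0.04 in CNT-2. The distance between Rplp0 and Rplp1 thus depended on the scaling. Rpl5 and Rpl11, which join 5S ribosomal RNA in a particle that can bind Mdm2, were at -0.20 ± 0.11 (probe SD, 3 probes) and 0.01. Rps6, the substrate of the S6 kinases, was at 0.09 in CNT-2 and -0.03 in CNT-1. The CNT-2 direction of Rplp0, Rplp2, Rpl11 and Rps6 also depended on the scaling: Rplp0 was at 0.05 with quantile normalization, and Rplp2, Rpl11 and Rps6 lay below 0 with median, 75th percentile and spike-in centring. Rpl5 and Rpsa stayed below 0 under each. Rpsa, also known as the laminin receptor, was at -0.32 ± 0.07 in CNT-2 and -0.05 ± 0.05 in CNT-1 (probe SD, 2 probes). Of the ribosomal proteins that the symbol rule does not take, Fau was at 0.03 and Rack1 at -0.02 in CNT-2, and at 0.01 and 0.01 in CNT-1.

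CNT-2 and CNT-1 were also set directly against each other at the same dose and time. The member median for CNT-2 minus CNT-1 was -0.05, with 30 members above 0 and 48 below, and 72 of 78 lay under the median of all genes, 0.15. At 1 log2 unit or more, 2 members were lower in CNT-2, Rps26 at -2.52 and Rpl34 at -1.0, where 4.65% of all genes were lower, and none was higher, where 9.32% were. At 0.5 log2 units 5 members were lower and none higher, where 37.2% of all genes were that far from 0 (24.4% higher and 12.7% lower). Rpl15 followed at -0.65, Rps7 at -0.63, Rpl28 at -0.60 and Rpl22 at -0.47. The highest were Rpl22l1 at 0.31, Rplp1 at 0.26, Rpl10 at 0.24, Rps3a at 0.17, Rpl35 at 0.17 and Rpl23 at 0.165. This comparison shares its columns with the others, so it is no further evidence for them.

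**Figure D4:**
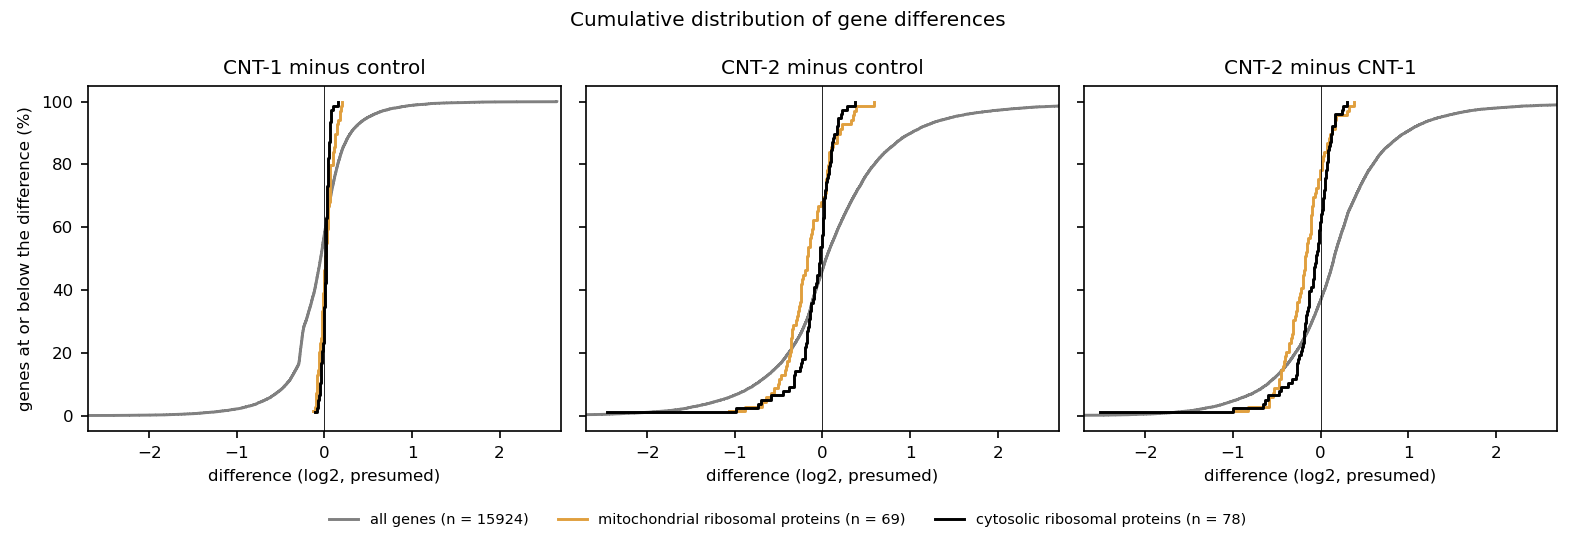
Cumulative share of genes (y axis: %) at or below each difference (x axis: log2, presumed) in the 3 comparisons, for cytosolic ribosomal proteins (n = 78), mitochondrial ribosomal proteins (n = 69) and all genes (n = 15924, values beyond the axis not drawn). The ribosomal protein curve is the steepest of these 3 in each panel, with a tail to Rps26 at -2.46 and -2.52 in the CNT-2 panels.

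Other genes of ribosome supply and translation gave the setting of these values. Among mitochondrial ribosomal proteins, which serve the separate ribosome of the mitochondrion, none of 69 was higher by 1 log2 unit in CNT-2 and 1 was lower, Mrpl16 at -1.07, where 10.1% of all genes were higher and 6.56% lower. Their median was -0.17, with 47 below 0, and the interquartile range was 0.39, against 0.22 for the cytosolic set. Of 39 ribosome assembly and nucleolar factors none was higher and 1 lower, Myc, a transcription factor that drives ribosome synthesis, at -1.46, against the same shares of all genes, and the median was -0.18. Below 0 by less than the threshold were the assembly factor Rrs1 at -0.86 and fibrillarin, Fbl, which methylates ribosomal RNA, at -0.76. Both medians stayed below 0 under the 4 other scalings, though by only -0.03 and -0.02 with quantile normalization. In CNT-1 the medians were 0.01 and 0.02 and no gene of either list was past the threshold, where 3.30% of all genes were.

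Translation factors had medians above 0, with few genes past the threshold. Of 35 initiation factors 1 was higher by 1 log2 unit in CNT-2, where 10.1% of all genes were: Eif1b, a factor of start codon choice, at 1.28, and the median was 0.19. Of 11 elongation and termination factors 1 was, Pelo, which rescues stalled ribosomes, at 1.18, with its partner Hbs1l at 0.83 ± 0.25 (probe SD, 2 probes), the release factor Etf1 at 0.88 and a list median of 0.14. Both medians turned negative with 75th percentile centring, at -0.25 and -0.30, and with spike-in centring, at -0.05 and -0.10. None of these factors was past the threshold on the lower side, where 6.56% of all genes were. Other mRNAs with a TOP tract had a median of -0.09 over 17 genes, against -0.03 for the ribosomal proteins. None of the 17 was past the threshold in either direction, where 16.7% of all genes were. They ran from Hnrnpa1 at -0.72 ± 0.07 (probe SD, 3 probes) to Vim at 0.90. The share within 0.1 of 0 was 29.4%, against 46.2% of the ribosomal proteins. With quantile normalization the median of these 17 genes was 0.07.

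Of 14 measured regulators of the translation of these mRNAs, 3 were past the threshold on the higher side in CNT-2 and none on the lower, where 10.1% of all genes were higher and 6.56% lower. They were Sesn2 at 1.63, Tsc1 at 1.301 and Ddit4 at 1.02, and each restrains mTORC1. Sesn2 was at -0.001 in control and in CNT-1 and at 1.63 in CNT-2. Larp1, which binds TOP mRNAs, was at 0.58 ± 0.03 (probe SD, 2 probes), Mtor itself at -0.44 and Rps6kb1, an S6 kinase, at -0.24. Rheb, which activates mTORC1, was at 0.69 and the mTORC1 subunit gene Rptor at 0.27. Of the translation repressors that mTORC1 inhibits, Eif4ebp2 was at -0.77, Eif4ebp1 at 0.57 and Eif4ebp3 at -0.009. The other measured regulators were Tsc2 at 0.45, Eef2k at 0.64 ± 0.56 (probe SD, 2 probes) and Mknk1 at 0.07. Activators lay on both sides of 0, and so did the translation repressors. Of the 14 regulators 10 lay above 0 and 4 below, where 8521 of 15924 genes lay above 0 and 7391 below. Whether activators and restraining genes differed was not tested. The list median of 0.51 stayed above 0 under the 4 other scalings, from 0.07 to 0.42. The counts past the threshold depended on the scaling. They were 2 higher and 0 lower with median centring, and 1 higher and 1 lower with 75th percentile centring. With spike-in centring 2 were higher and 1 lower, and with quantile normalization 0 were past it on either side. In CNT-1 none of the 14 was past the threshold, where 3.30% of all genes were, and Ddit4 was the highest at 0.59. The lists share 11 of their 176 genes with each other.

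**Figure D5:**
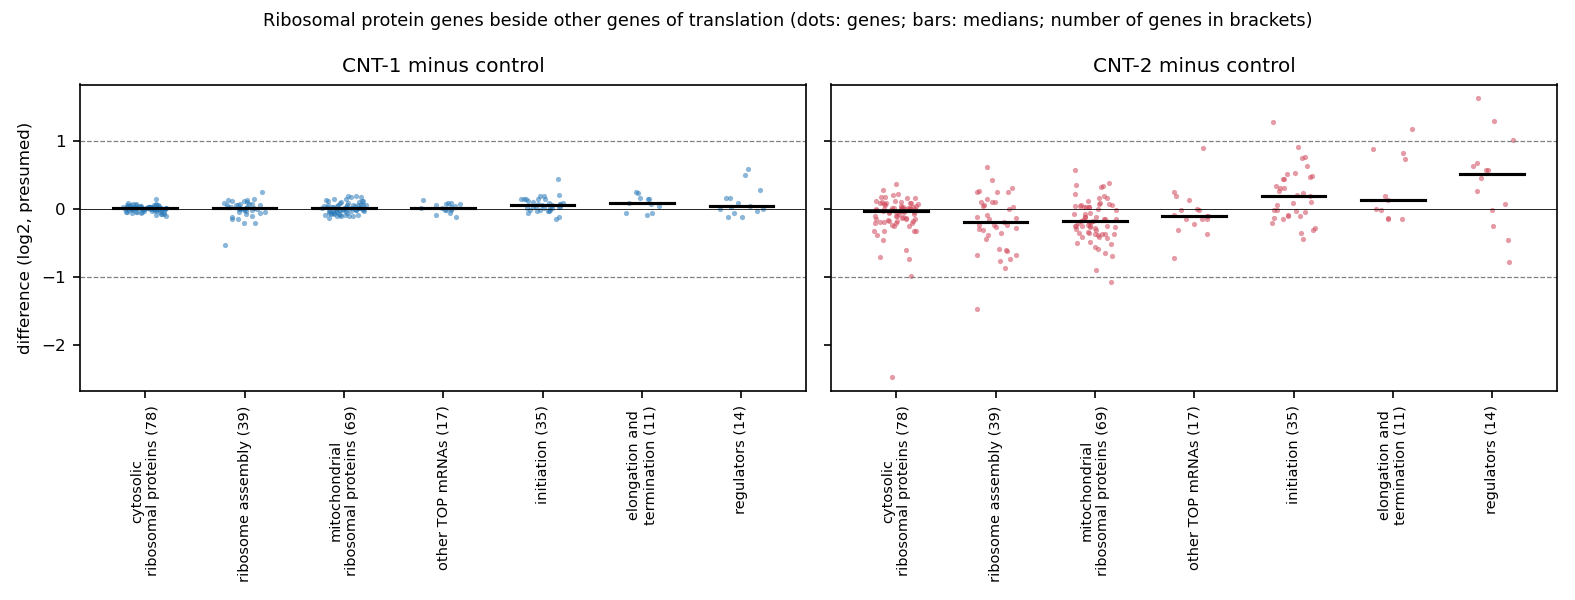
Differences from control (y axis: log2, presumed) for cytosolic ribosomal proteins and 6 other gene lists, with dots for genes and bars for medians, in CNT-1 (left) and CNT-2 (right). In CNT-2 the medians run from -0.18 for ribosome assembly factors to 0.51 for regulators, with cytosolic ribosomal proteins at -0.03.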

How the data were processed

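The authors deposited 1 table of log2 differences (base presumed from the values), with 1 column per group and 41103 probes. The submitters' processing notes name Agilent Feature Extraction 10.7.3.1. The sources used here do not give the normalization between arrays, the baseline or any pooling, and no depth or signal over background can be read from the values. The median value was 0.014 in the control column, -0.045 in CNT-1 and 0.064 in CNT-2.

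Members were found by the platform's symbols. All genes were named through RefSeq (assembly GRCr8): 17415 probes by accession, 3113 by current symbol and 396 by older symbol, while 8 were unmatched and 20171 had no symbol. Of the member probes 5 carry another current symbol. The probes of Rpl10l, Rpl36al and Rpl39l are now named Rpl10l1, Rpl36al1 and Rpl39l1, and 1 probe of Rpl37 is now named Rpl37l1. The start sequence shown for Rpl39l is that of Rpl39l1. Differences were taken per probe and averaged over the probes of a gene, in Python 3.11.15 with pandas 2.3.3, and steps were tested on simulated data. A gene was counted past the threshold at 1 log2 unit. With 1 column per group there is no test and no p-value. The number of arrays limits the precision.

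Members and lists were chosen with earlier results of these data known. Named genes were the 6 highest and 6 lowest members per comparison, members past the threshold, paralogs with partners, the P-stalk, Rps6, Rpl5, Rpl11 and Rpsa, the members with the widest probe ranges, and list genes past the threshold, while other list genes named were chosen after their values were seen. List genes whose symbol matched no probe are not analysed here. Alternatives were other scalings, probe summaries, probe and member choices and a threshold of 0.5.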

Additional observations from a re-analysis of the deposited data

How the results depend on the processing

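No paired analysis was possible because each group had 1 column. Leaving out a replicate was not possible for the same reason. The member median for CNT-1 was 0.0455 with median centring, -0.0365 with 75th percentile centring, 0.1927 with quantile normalization and 0.056 with spike-in centring. For CNT-2 minus control these were -0.1242, -0.4682, 0.0572 and -0.2752, and -0.1073 with the mean of members. For CNT-2 minus CNT-1 they were -0.173, -0.435, -0.1212 and -0.3345, and -0.1199 with the mean. Each of these moved by more than the median probe SD, and centring shifts all genes alike. The count past 1 log2 unit in CNT-2 was 2 with median and spike-in centring, 5 with 75th percentile centring, 0 with genes of 2 or more probes and 5 at 0.5 log2 units. For CNT-2 minus CNT-1 it was 4 with 75th percentile centring, 1 with quantile normalization, 0 with genes of 2 or more probes and 5 at 0.5 log2 units. In CNT-1 the count was 0 under each alternative run. Over all genes the share of higher among genes past the threshold went from 35.0% to 49.7% in CNT-1 with quantile normalization, and in CNT-2 from 60.7% to 26.7% (75th percentile centring) and to 40.5% (centring on spike-ins). Without Rps26, whose single probe gave the only count in CNT-2, that count was 0. Choosing members by current RefSeq symbols and leaving out probes without a RefSeq accession were added after seeing the data.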

Other observations

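Some probes of ribosomal protein gene copies outside the rule lay apart from the named gene in CNT-2, and others did not. The probe of Rpl30-ps10 was at 0.005 in control, 0.01 in CNT-1 and -1.17 in CNT-2, a CNT-2 difference of -1.17, while Rpl30 itself was at -0.17 ± 0.06 (probe SD, 2 probes). The probes now named Rps12l4 and Rps12l5 in RefSeq, which carry older symbols on the array, were at -0.83 and -0.58 in CNT-2, while Rps12 was at 0.05 ± 0.03 (probe SD, 2 probes). Rps12l4 was at -0.22 in CNT-1 and Rps12l5 at -0.03. The probe now named Rpl34l1 was at -0.12 in CNT-2, where Rpl34 was at -0.985. The 2 probes of Rpl37a-ps1 were at -0.06 and 0.05, on either side of Rpl37a at 0.02. Low values in CNT-2 thus occurred both in probes of core genes and in probes of copies, and which transcripts each probe matches is not shown in the files.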
